A study of Mus musculus with 6 samples.

Results

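The genes described here are 35 mouse genes of the unfolded protein response and the integrated stress response. All non-control probes whose accession maps to 1 of these genes were taken from the 6 arrays. They gave 55 probes, and all 35 genes were on the array and were tested, among 23058 genes tested in all. Each gene is represented by its brightest probe, which was well above background on all 6 arrays for every one of the 35. RNA came from cultured tail tissue fibroblasts (TTF) of C57BL/6 mice, in 3 groups of 2 arrays. Every group, the controls included, carried the LH2F/F allele with CAG-Cre and the genotype label LH2 cKO, for a conditional loss of lysyl hydroxylase 2, the collagen-modifying enzyme encoded by Plod2. Cells of the control group never met tamoxifen in their medium, per the labels. The no.1 cells received tamoxifen for 24 h and then stayed in tamoxifen medium. The no.2 cells received the same 24 h and then medium free of tamoxifen. CAG is a promoter active in most cell types, so Cre is not restricted to fibroblasts. A group given the drug with an intact gene was not among the samples, and for contrasts with control the drug and the deletion cannot be told apart. The file names carry 0 h for the control arrays, and 24 h and 48 h for the first and second array of both treated groups, whereas 24 h stands in the labels of all 4, so time in culture may also differ.

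The unfolded protein response starts at 3 membrane proteins of the endoplasmic reticulum (ER), encoded by Atf6, Ern1 and Eif2ak3, when unfolded protein accumulates in its lumen. ATF6 and the XBP1 protein made after IRE1 splices its mRNA raise ER chaperones and the machinery that extracts misfolded protein for degradation. PERK, the product of Eif2ak3, and the kinases that sense amino acid shortage, heme lack or viral RNA all phosphorylate the initiation factor eIF2, which lowers general translation and favours that of ATF4. ATF4 with its partners raises stress effectors such as CHOP and the enzymes of amino acid supply, a branch known as the integrated stress response. Fibroblasts secrete much collagen and so depend on ER folding capacity.

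Promoters of several of these genes hold the DNA elements through which the factors above are known to act. The elements were taken up with the changes of these genes already known. A link between any of the elements and the direction of a change was not tested. RefSeq promoter windows of build GRCm38.p6, 250 bases before to 50 after the start, were given for 31 of the 35 genes, and Atf6, Manf, Hyou1 and Derl1 had none. Both strands were searched. The ER stress response element was read as CCAAT, then 9 bases of any kind, then CCACG. It was found in 8 of the 31 genes (Hspa5, Hsp90b1, Calr, Canx, Pdia6, Dnajc3, Creld2 and Syvn1), against 37 of 27025 genes in all (0.137%). Of these, 7 belong to the chaperones and folding enzymes. The lines for this element carry the match in capitals, 5′ to 3′ along the gene's own strand, and a match on the opposite strand reads as its reverse complement.
Hspa5, chr2:34772010-34772058, plus strand: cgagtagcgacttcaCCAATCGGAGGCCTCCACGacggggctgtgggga
Canx, chr11:50325785-50325833, minus strand: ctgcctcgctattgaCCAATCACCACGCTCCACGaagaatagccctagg
Hsp90b1, chr10:86705623-86705671, minus strand: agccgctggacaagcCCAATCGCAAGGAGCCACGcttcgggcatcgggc
Hsp90b1, chr10:86705518-86705566, minus strand: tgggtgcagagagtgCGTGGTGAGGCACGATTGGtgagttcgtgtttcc
Calr, chr8:84847060-84847108, minus strand: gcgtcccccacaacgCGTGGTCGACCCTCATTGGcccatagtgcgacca

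The match ended 47 bases before the start in Hspa5, 127 in Canx, 194 and 89 in Hsp90b1, and 144 in Calr. Among the 8 genes only Hsp90b1 held 2 matches. A related element, ERSE-II, read as ATTGG, 1 base of any kind and CCACG, was found in Herpud1 and, after the start, in Dnajb11, against 12 genes in all (0.0444%). The UPR element TGACGTGG was in 0 of the 31 genes and in 193 of all (0.714%), and the absence says only that these letters are not in these windows. The C/EBP-ATF element, read as TGATGNAA, through which ATF4 and CHOP act with C/EBP partners, was in Herpud1, Chac1, Asns and, after the start, Trib3, against 1219 genes in all (4.51%). The elements do not overlap one another in Herpud1, where both were found. A match is a description of the letters and not evidence of binding.
Herpud1, ERSE-II, chr8:94386362-94386402, plus strand: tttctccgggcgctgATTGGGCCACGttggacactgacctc
Herpud1, C/EBP-ATF, chr8:94386302-94386339, plus strand: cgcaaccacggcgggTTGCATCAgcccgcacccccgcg
Chac1, C/EBP-ATF, chr2:119351034-119351071, plus strand: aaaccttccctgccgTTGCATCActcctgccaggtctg
Asns, C/EBP-ATF, chr6:7693210-7693247, minus strand: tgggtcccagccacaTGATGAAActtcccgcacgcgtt

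Signal differed between the groups across the whole array, and the scale therefore matters for every direction given here. In control 44.2% and 45.7% of probes passed the scanner's background test, 53.4% and 53.5% in no.1, and 48.4% and 48.6% in no.2. The 75th percentile of the signal was 33.7 to 34.2 in control, 85.1 to 95.9 in no.1 and 55.1 to 56.9 in no.2. Levels are given as multiples of that percentile on the same array, and changes as log2 fold changes after the same scaling with limma's SE and adjusted p (n = 2 arrays per group). Relative to 7 spike-in control probes every log2 fold change was higher by 1.94 in no.1 and by 1.29 in no.2. The targeted gene Plod2 read 1.23 and 1.04 times the 75th percentile (control), 0.331 and 0.201 times (no.1) and 0.242 and 0.151 times (no.2). On this scale the treated arrays did not overlap with control, with log2 fold changes of -2.131 in no.1 and -2.565 in no.2. Relative to the spike-in probes, however, Plod2 stood at -0.193 in no.1 and -1.279 in no.2. The position of its probe relative to the deleted part was not examined. Over the 35 genes the robust SD of the difference between arrays of a group was 0.0618 on the log2 scale in control, 0.257 in no.1 and 0.237 in no.2. Whether both arrays of a group stem from separate cultures is not stated in the labels. The p-values thus rest on the spread among these arrays, which may be technical. In the treated groups that spread may also hold the difference between the 24 h and 48 h of the file names. The number of arrays limits the precision. In bulk RNA a change in the mix of cells and a change per cell cannot be told apart. Of 10 fibroblast markers 8 or 9 were above background on each array, Lum on none and Fap on 1, and their summed level was 1370 to 1430 in control, 877 to 917 in no.1 and 1130 to 1220 in no.2. Of the 8 fibroblast markers tested 4 were called lower in no.1, Dcn (-3.73), Thy1 (-2.22), Pdgfrb (-2.14) and Pdgfra (-1.54), and all of these but Pdgfrb in no.2, while Col1a1 (-0.13 in no.1) and Vim (-0.03) did not pass. The defining keratinocyte markers Krt5 and Krt14, the leukocyte and macrophage markers Ptprc, Adgre1 and Lyz2, and the endothelial markers Cdh5 and Tie1 were above background on no array. Krt10 and Trp63 were above background on all 6 arrays, Pecam1 on 5, Tek on 1, and Kdr on both no.1 arrays and no other. The summed level was 9.74 to 11.7 for 8 keratinocyte markers and 0.24 to 0.448 for 6 endothelial markers over the 6 arrays. Of 7 macrophage markers 4 were above background on all 6 arrays, Csf1r, Cd68, Itgam and Cd14. The summed level of the 7 was 45.9 to 48.9 in control, 28.7 to 32.7 in no.1 and 30 to 36.8 in no.2. Csf1r was called lower in no.1 (-2.40, adjusted p of 0.00723) and no.2 (-2.07, adjusted p of 0.0192), and the other 3 did not pass. Of 5 adipocyte markers 2 were above background, both called lower in no.1 and 1 in no.2, with a summed level of 4.73 to 4.76 in control, 1.79 to 2.2 in no.1 and 2.34 to 2.49 in no.2. Of 5 melanocyte markers up to 3 were above background, and all 3 tested were called lower in no.1 and 1 in no.2, with a sum of 1.6 to 1.7 in control, 0.519 to 0.578 in no.1 and 0.617 to 0.898 in no.2. Of 6 skeletal muscle markers up to 2 were above background, without Myod1, Myog and Pax7. Des was called lower in no.1, where it was above background on 1 of 2 arrays. Of 5 Schwann cell markers 1 or 2 were above background on each array. S100b was above background on both control arrays and on no treated array, and was called lower in both treated groups, while Mbp did not pass. The part of these marker shifts in the results was not tested.

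After scaling to the 75th percentile the effectors of the integrated stress response fell in no.1, and most genes of the unfolded protein response did not pass the test. In no.1, limma called 17 of the 35 genes against control, 6 higher and 11 lower, which is 48.6% of them. Of all genes tested 47.8% were called, 21.4% higher and 26.4% lower, so the number called was near that of genes at large. In no.2, 6 of the 35 were called (17.1%), 1 higher and 5 lower, where 28.3% of all genes were called, 12.1% higher and 16.2% lower. Eif2ak3 was the gene called higher in both treated groups, and Ddit3, Ppp1r15a, Sesn2, Asns and Shmt2 were called lower in both. Both comparisons use the same control arrays. In all, 11 genes were called in no.1 alone, 0 in no.2 alone, and 18 in neither. The median log2 fold change of the 35 was -0.21 in no.1 and -0.16 in no.2, beside -0.12 and -0.10 over all genes tested.

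**Figure D1:**
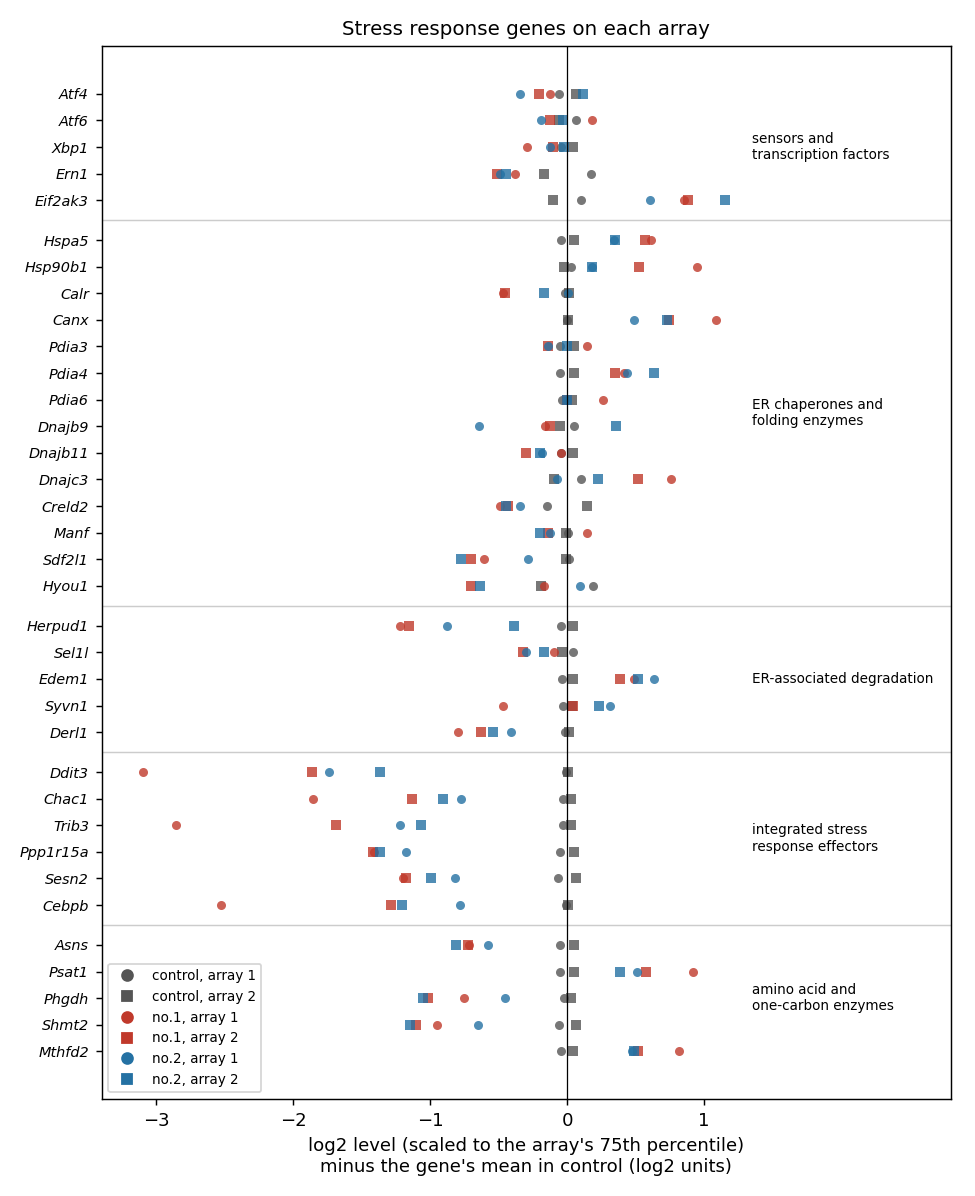
Level of each of the 35 genes on each of the 6 arrays, as log2 of the signal over the array's 75th percentile minus the gene's mean in control (log2 units), grouped by role. The control arrays lie near 0, the 6 effectors lie below control on all 4 treated arrays, and Ddit3 is lowest on the first no.1 array, at -3.10.

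The integrated stress response effectors were lower on every treated array than on either control array. How many of all genes lay below control in the same way was not counted. All 6 were called lower in no.1 and 3 of 6 in no.2, where 26.4% and 16.2% of all genes were. The median log2 fold changes of the effectors were -1.70 and -1.07. On the spike-in scale, however, the effector medians were 0.24 and 0.21. In that scaling, of the effectors Ddit3 and Trib3 alone stayed below 0 in no.1 and Ddit3 alone in no.2. Ddit3, which encodes CHOP, a transcription factor that promotes cell death under lasting stress, stood at 11.6 and 11.7 times the 75th percentile (control), 1.36 and 3.21 times (no.1) and 3.49 and 4.53 times (no.2). Both no.1 arrays lay below both no.2 arrays, which lay below control. Ddit3 was 5.58-fold lower than control in no.1 (log2 fold change -2.48 with SE 0.41 and adjusted p of 0.0066) and 2.93-fold lower in no.2 (-1.55 with SE 0.41 and adjusted p of 0.0387). Scaled to the spike-ins, it stood at -0.54 and -0.27, which did not pass.

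Trib3, a pseudokinase induced by CHOP that in turn restrains it, read 58.2 and 60.7 (control), 8.21 and 18.5 (no.1) and 25.5 and 28.3 (no.2). The first no.1 array was lowest, and the groups did not overlap. Trib3 fell 4.82-fold in no.1 (log2 fold change -2.27 with SE 0.38 and adjusted p of 0.00686), and in no.2 its log2 fold change was -1.15, which did not pass (adjusted p of 0.0691). Cebpb, the gene of C/EBPβ, which pairs with ATF4 and CHOP, read 136 and 137 (control), 23.7 and 56.1 (no.1) and 79.5 and 59.1 (no.2). The second no.1 array lay close to the second no.2 array, and the first no.1 array stood apart. Cebpb fell 3.75-fold in no.1 (-1.91 with SE 0.42 and adjusted p of 0.0139), with -1.0 in no.2 (adjusted p of 0.117). Relative to the spike-ins its log2 fold change in no.1 was 0.031.

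Chac1, an enzyme that degrades glutathione, read 31 and 32.3 (control), 8.72 and 14.4 (no.1) and 18.5 and 16.8 (no.2). It fell in no.1 (-1.50 with SE 0.28 and adjusted p of 0.00871) and stood at -0.84 in no.2 (adjusted p of 0.0671), without overlap between the 3 groups. The last pair of effectors differed less between the arrays of a group. Ppp1r15a encodes GADD34, which brings a phosphatase to eIF2 and so ends the response, and read 46 and 49.2 (control), 17.9 and 17.8 (no.1) and 21 and 18.4 (no.2). It fell 2.66-fold in no.1 (-1.41 with SE 0.19 and adjusted p of 0.00403) and 2.42-fold in no.2 (-1.27 with SE 0.19 and adjusted p of 0.00971), the lowest adjusted p of the 35 genes in each comparison. Sesn2, a leucine sensor that restrains mTORC1, read 21.4 and 23.5 (control), 9.76 and 9.92 (no.1) and 12.7 and 11.2 (no.2). Sesn2 fell in no.1 (-1.19 with SE 0.19 and adjusted p of 0.0061) and in no.2 (-0.91 with SE 0.19 and adjusted p of 0.0216). On the spike-in scale, the log2 fold changes in no.1 were 0.44 for Chac1, 0.52 for Ppp1r15a and 0.75 for Sesn2, the last of which passed as higher.

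**Figure D2:**
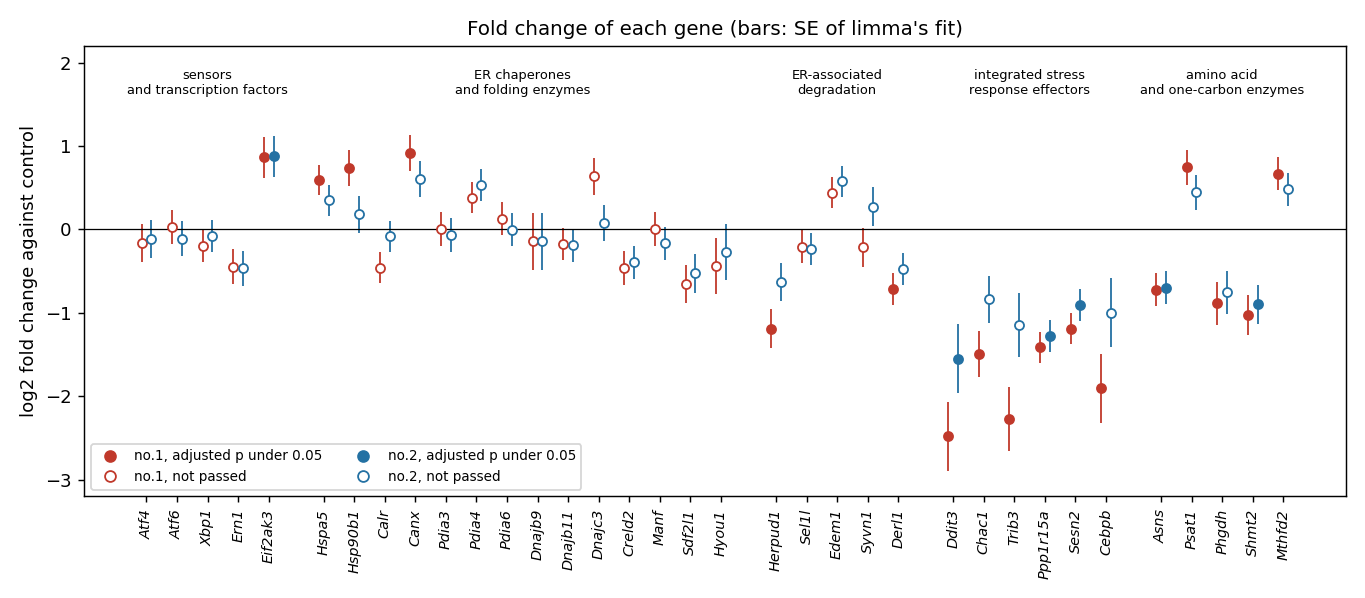
Log2 fold change of each gene against control in no.1 (red) and no.2 (blue) after scaling to the 75th percentile, with the SE of limma's fit as bars and filled points where the adjusted p was under 0.05. The effectors are the group with all 6 genes below 0 in both comparisons, down to -2.48 for Ddit3, while Canx reaches 0.92.

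Among the sensors and transcription factors 1 of 5 genes passed, called higher in both comparisons, where 21.4% (no.1) and 12.1% (no.2) of all genes were. Eif2ak3, which encodes PERK, read 0.84 and 0.732 (control), 1.42 and 1.44 (no.1) and 1.19 and 1.75 (no.2). All 4 treated arrays lay above control, and the no.2 arrays spanned the no.1 arrays. Eif2ak3 rose 1.82-fold in no.1 (log2 fold change 0.87 with SE 0.25 and adjusted p of 0.0308) and 1.84-fold in no.2 (0.88 with SE 0.25 and adjusted p of 0.0443), and was above 0 relative to the spike-ins as well. Atf4, the factor at the centre of the integrated stress response, read 237 and 258 (control), 215 to 227 (no.1) and 195 and 268 (no.2). Its log2 fold changes were -0.16 (SE 0.23) and -0.11 (SE 0.23), and neither passed. ATF4 is set mostly by translation, which arrays do not measure. Xbp1 stood at -0.20 in no.1 and -0.07 in no.2, and whether its probes tell spliced from unspliced mRNA was not examined. Atf6 stood at 0.03 and -0.11, and Ern1, the gene of IRE1, at -0.45 and -0.47, with all 4 treated arrays below control and adjusted p of 0.121 and 0.135. Different probes of Atf4 and of Xbp1 differed in the sign of their change in both comparisons.

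Of 14 ER chaperones and folding enzymes, 3 rose in no.1 and none fell, and none passed in no.2 in either direction, with medians of 0.003 and -0.077. The share that rose in no.1, 21.4%, is that of all genes called higher. Scaled to the spike-ins, all 14 were called higher in no.1 and 13 of 14 in no.2, where 82.3% and 65.2% of all genes were. Hspa5 encodes BiP, the main ER chaperone and the sensors' own inhibitor, and read 71.2 and 76 (control), 112 and 109 (no.1) and 93.4 and 93.7 (no.2). The 3 groups did not overlap, with no.2 between the others. Hspa5 rose 1.51-fold in no.1 (0.59 with SE 0.18 and adjusted p of 0.0395), with 0.35 in no.2 (adjusted p of 0.188). Hsp90b1, the ER form of HSP90 (GRP94), read 76.5 and 73.8 (control), 145 and 108 (no.1) and 85.2 and 85 (no.2). It rose in no.1 (0.74 with SE 0.22 and adjusted p of 0.0345) and stood at 0.18 in no.2 (adjusted p of 0.548).

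Canx, the membrane-bound lectin chaperone calnexin, read 34.3 and 34.4 (control), 72.9 and 57.5 (no.1) and 48.2 and 56.8 (no.2). Treated arrays were all above control, and the second arrays of no.1 and no.2 nearly met. Canx rose 1.89-fold in no.1 (0.92 with SE 0.22 and adjusted p of 0.0172), with 0.61 in no.2 (adjusted p of 0.0792). Calr, its soluble counterpart calreticulin, stood on the other side, at -0.46 in no.1 (adjusted p of 0.0846) and -0.08 in no.2. All 3 chaperones that rose in no.1 are among the 8 genes with an ER stress response element listed above. The element is common in this role, with 7 of the 14 chaperones and folding enzymes carrying it and no window for Manf and Hyou1. A link between the element and the change was not tested. The other 5 of the 8 genes (Calr, Pdia6, Dnajc3, Creld2 and Syvn1) did not pass, at -0.46, 0.13, 0.64, -0.46 and -0.21. Dnajc3, the co-chaperone p58IPK that inhibits PERK, was the nearest to passing (adjusted p of 0.0541).

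The disulfide isomerases did not pass in either comparison. Pdia3 stood at 0.001 and -0.07, Pdia4 at 0.38 and 0.53, and Pdia6 at 0.13 and -0.001 in no.1 and no.2. Pdia4 was above control on all 4 treated arrays, where Pdia3 and Pdia6 overlapped with control. The BiP co-chaperones Dnajb9 (-0.14 and -0.14) and Dnajb11 (-0.18 and -0.19) and the exchange factor Hyou1 (-0.44 and -0.27) did not pass, and the probes of Hyou1 differed in sign in both comparisons, as did those of Pdia3, Manf and Sel1l in no.2. Creld2 (-0.46 and -0.40) and Manf (0.005 and -0.16) encode ER-resident proteins that are also secreted under stress. Sdf2l1, a partner of the BiP system, stood at -0.65 and -0.53 with adjusted p of 0.0574 and 0.127, below control on all 4 treated arrays.

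In ER-associated degradation, which returns misfolded protein to the cytosol for the proteasome, 2 of 5 genes were called lower in no.1. None passed in no.2 in either direction. Of all genes 26.4% and 16.2% were called lower in no.1 and no.2. Herpud1, which organises the HRD1 ubiquitin ligase complex, read 20 and 21.2 (control), 8.84 and 9.24 (no.1) and 11.2 and 15.8 (no.2). The no.1 arrays were lowest, and the groups did not overlap. Herpud1 fell 2.28-fold in no.1 (-1.19 with SE 0.23 and adjusted p of 0.00984), stood at -0.63 in no.2 (adjusted p of 0.0851), and was at 0.75 in no.1 relative to the spike-ins. Derl1, a derlin of the retrotranslocation channel, read 11.8 and 12.1 (control), 6.86 and 7.74 (no.1) and 9 and 8.23 (no.2). Derl1 fell in no.1 (-0.71 with SE 0.19 and adjusted p of 0.0251) and stood at -0.48 in no.2 (adjusted p of 0.106), and at 1.22 in no.1 relative to the spike-ins. Syvn1, the ligase HRD1 itself, stood at -0.21 and 0.27, its partner Sel1l at -0.21 and -0.24, and Edem1, which marks glycoproteins for disposal, at 0.44 and 0.57, and none of the 3 passed.

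The amino acid and one-carbon enzymes split, although all 5 are known ATF4 targets. In no.1, 2 of 5 were called higher and 3 lower, where 21.4% and 26.4% of all genes were. In no.2, 2 were called lower and none higher, beside 16.2% and 12.1% of all genes. With the median probe or normexp, 0 of the 5 were called lower in no.1. Asns, asparagine synthetase, read 88.5 and 94.9 (control), 55.7 and 55.4 (no.1) and 61.2 and 52.2 (no.2). The treated arrays overlapped with each other and not with control. Asns fell in no.1 (-0.72 with SE 0.19 and adjusted p of 0.0256) and in no.2 (-0.70 with SE 0.19 and adjusted p of 0.0433). Phgdh, the first enzyme of serine synthesis, read 256 and 265 (control), 154 and 128 (no.1) and 190 and 126 (no.2). It fell in no.1 (-0.89 with SE 0.26 and adjusted p of 0.0335) and stood at -0.76 in no.2 (adjusted p of 0.0735). Psat1, the next enzyme of the same route, went the other way, with 44.6 and 47.9 (control), 87.2 and 68.9 (no.1) and 65.8 and 60.4 (no.2). Psat1 rose in no.1 (0.75 with SE 0.21 and adjusted p of 0.0296) and stood at 0.45 in no.2 (adjusted p of 0.15).

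The mitochondrial folate enzymes, which turn serine into one-carbon units, were likewise on opposite sides. Shmt2 read 39.8 and 43.5 (control), 21.5 and 19.4 (no.1) and 26.5 and 18.7 (no.2). Shmt2 fell in no.1 (-1.03 with SE 0.24 and adjusted p of 0.0163) and in no.2 (-0.90 with SE 0.24 and adjusted p of 0.0378). Mthfd2 read 6.84 and 7.28 (control), 12.4 and 10.1 (no.1) and 9.82 and 9.9 (no.2). It rose in no.1 (0.67 with SE 0.20 and adjusted p of 0.0362) and stood at 0.48 in no.2 (adjusted p of 0.114). Relative to the spike-ins Asns, Phgdh and Shmt2 turned above 0 in no.1, at 1.22, 1.05 and 0.91, and Psat1 and Mthfd2 stayed above 0.

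The count in each direction moved with the scale set for the arrays. With the median probe as reference, 9 of the 35 were called higher and 6 lower in no.1 (32.8% and 14.3% of all genes), and 4 and 2 in no.2 (21% and 9.43%). Quantile normalization gave 8 and 10 in no.1 (25.9% and 21.8% of all genes) and 5 and 2 in no.2 (16.2% and 13.5%). With normexp background correction the counts were 16 and 8 in no.1 (25.2% and 44.8% of all genes) and 10 and 2 in no.2 (13.2% and 21.3%). On the spike-in scale, 29 were higher and 0 lower in no.1 (82.3% and 1.83% of all genes), and 23 and 0 in no.2 (65.2% and 2.32%). All 6 effectors were called lower in no.1 under the 75th percentile, the median probe, quantile normalization and normexp, and none relative to the spike-ins. In no.1 the calls of Asns and Phgdh were lost with the median probe, quantile normalization and normexp, those of Shmt2 and Derl1 with the median probe and normexp, and that of Herpud1 with the median probe. In no.2 the calls of Asns and Shmt2 were lost with these 3, that of Ddit3 with quantile normalization and normexp, that of Sesn2 with the median probe and that of Eif2ak3 with normexp. The mean over a gene's probes ended the calls of Hspa5 and Shmt2 in no.1 and of Asns and Shmt2 in no.2. The other 2 probes of Hspa5 stood at 0.25 and 0.44 in no.1. Fitting the compared groups alone ended those of Asns, Shmt2 and Eif2ak3 in no.2. The gap between groups of genes on 1 array does not depend on the array's scaling factor. The median of the effectors minus the median of the chaperones, each relative to control, was -0.02 and 0.02 (control), -2.34 and -1.22 (no.1), and -0.96 and -1.14 (no.2). The control values mirror each other around 0 by construction, since each gene is set against its own control mean.

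**Figure D3:**
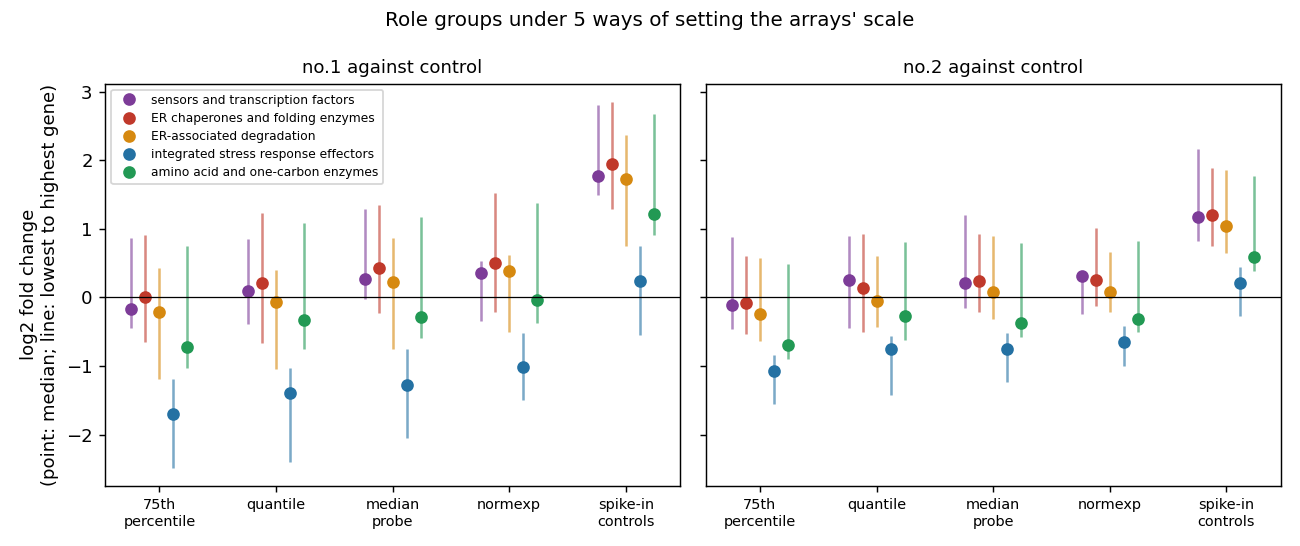
Median log2 fold change against control of each role group (points) with its lowest and highest gene (lines) under 5 ways of setting the arrays' scale. The effectors have the lowest median of the 5 groups under each, from -1.70 to 0.24 in no.1, and the whole set of groups moves up relative to the spike-ins.

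The calls also leaned on the nearly coinciding control arrays. With these averaged into 1 sample, limma called 5 of the 35 lower and 0 higher in no.1, against 11.2% and 9.8% of all genes, and 0 in no.2, against 2.9% lower and 2.5% higher. The 5 were Ddit3, Chac1, Trib3, Ppp1r15a and Sesn2. Leaving out either control array or no.1 replicate 1 also left fewer genes called in no.1, all of them lower. Without no.1 replicate 2, fewer genes were called as well, but in both directions. In no.2 no call remained when either control array was left out. Fewer remained there without no.2 replicate 2, but not without no.2 replicate 1. Where 1 array is left out, the lone array of its group is assumed to vary like the other groups.

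No gene passed the test between no.1 and no.2, the comparison that the series' design text names. Limma called 0 of the 35 and 0 of 23058 genes (0%), where 3 of the 35 and 3824 of all had an unadjusted p under 0.05. The difference of lowest p was that of Trib3, with -1.12 (SE 0.38, adjusted p of 0.282). Dnajc3 read 1.45 and 1.23 in no.1 against 0.816 and 1.01 in no.2, a difference of 0.56 (SE 0.22, adjusted p of 0.292). Hsp90b1 differed by 0.56 (SE 0.22, adjusted p of 0.293), Herpud1 by -0.56 (SE 0.23, adjusted p of 0.302) and Chac1 by -0.66 (SE 0.28, adjusted p of 0.308). The arrays of the groups did not overlap for any of these 5 genes on this scale. The 5 were picked for the lowest p, so that separation adds no support, and its share over all genes was not counted. All 6 effectors lay on the lower side in no.1, with a median of -0.78, beside -0.01 over all genes tested, but relative to the spike-ins Ppp1r15a (0.51) and Sesn2 (0.37) turned above 0 with an effector median of -0.13, and with normexp Ppp1r15a did (0.15). Scaled to the spike-ins, all differences were higher by 0.65, and Herpud1 turned to 0.09. The first no.1 array was the lower one for Ddit3, Trib3, Cebpb and Chac1, and the second no.1 array lay nearer to no.2.

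Other genes of the same pathways were read from lists, which give counts and no test of the list, to be read against the 21.4% of all genes called higher and 26.4% lower in no.1, and 12.1% and 16.2% in no.2. With the control arrays averaged, 21 of the 31 calls that the naming rule picks for no.1 were kept, and 6 of 24 for no.2 (Gdf15, Stc2, Bcl2l11, Psph, Sdf2 and Ube2g2). The calls lost in no.1 were those of Tram1, Spcs3, Ssr3, Cnpy2, Prkcsh, Vcp, Edem2, Wars, Aars and Iars, and of 4 genes picked for no.2 and also called in no.1, Vldlr and Hspb1 kept that call and Slc7a11 and Ero1a lost it. The lists were chosen with earlier results of these data known, so their counts are no independent support. Of 14 other ATF4 and CHOP targets, 8 fell and none rose in no.1, and 5 fell and none rose in no.2, with medians of -0.96 and -0.83. Nupr1 and Atf3 also stand in the list of other stress sensors and regulators, so the fall of Nupr1 is counted in both lists. Gdf15, a stress-induced secreted factor, stood at -4.24 (SE 0.39, adjusted p of 0.00186) and -4.59 (SE 0.39, adjusted p of 0.00258). Stc2, a secreted stanniocalcin, stood at -3.24 (adjusted p of 0.00114) and -2.69 (adjusted p of 0.00297), and Nupr1, a stress-induced nuclear protein, at -3.24 (adjusted p of 0.00387) and -2.42 (adjusted p of 0.0142). Relative to the spike-ins these 3 stayed below 0 in both groups, at -2.30 and -3.30 for Gdf15, -1.30 and -1.40 for Stc2, and -1.31 and -1.13 for Nupr1. Sqstm1, the autophagy receptor p62, fell in no.1 (-1.58, adjusted p of 0.0103) but was at 0.36 relative to the spike-ins, and Vldlr, a lipoprotein receptor, fell in no.1 (-1.24, adjusted p of 0.0062) and no.2 (-1.56, adjusted p of 0.0069), and relative to them was above 0 in no.1 and at -0.27 in no.2. The lowest of the list, Fgf21, was above background on 1 of 2 no.1 arrays, so no fold is given.

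Of 18 other ATF4 targets in amino acid supply, 9 fell and 1 rose in no.1, and 5 fell and 1 rose in no.2, with medians of -0.70 and -0.38. The riser was Slc38a2, the SNAT2 amino acid transporter, at 1.90 (SE 0.27, adjusted p of 0.00454) and 1.45 (SE 0.27, adjusted p of 0.0162). Among those that fell were Slc6a9, a glycine transporter (-2.23 and -1.24), and Psph, the last enzyme of serine synthesis (-1.62 and -1.53). The mitochondrial enzyme Pck2 fell in no.1 (-1.88, adjusted p of 0.00927), and Slc7a11, the cystine transporter, fell in no.1 (-0.88, adjusted p of 0.0196) and no.2 (-1.15, adjusted p of 0.0168). On the spike-in scale, Pck2, Slc7a11, Psph in no.1 and Slc6a9 in no.2 turned above 0. In the list of aminoacyl-tRNA synthetases, whose 13 genes include the tRNA exporter Xpot, 4 fell and 1 rose in no.1, and 1 fell in no.2. In no.1 Sars stood at -1.31, Wars at -1.27, Aars at -1.09 and Iars at 0.90, and in no.2 Wars stood at -1.44. Scaled to the spike-ins, all 4 were above 0 in no.1 and Wars was at -0.16 in no.2.

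**Figure D4:**
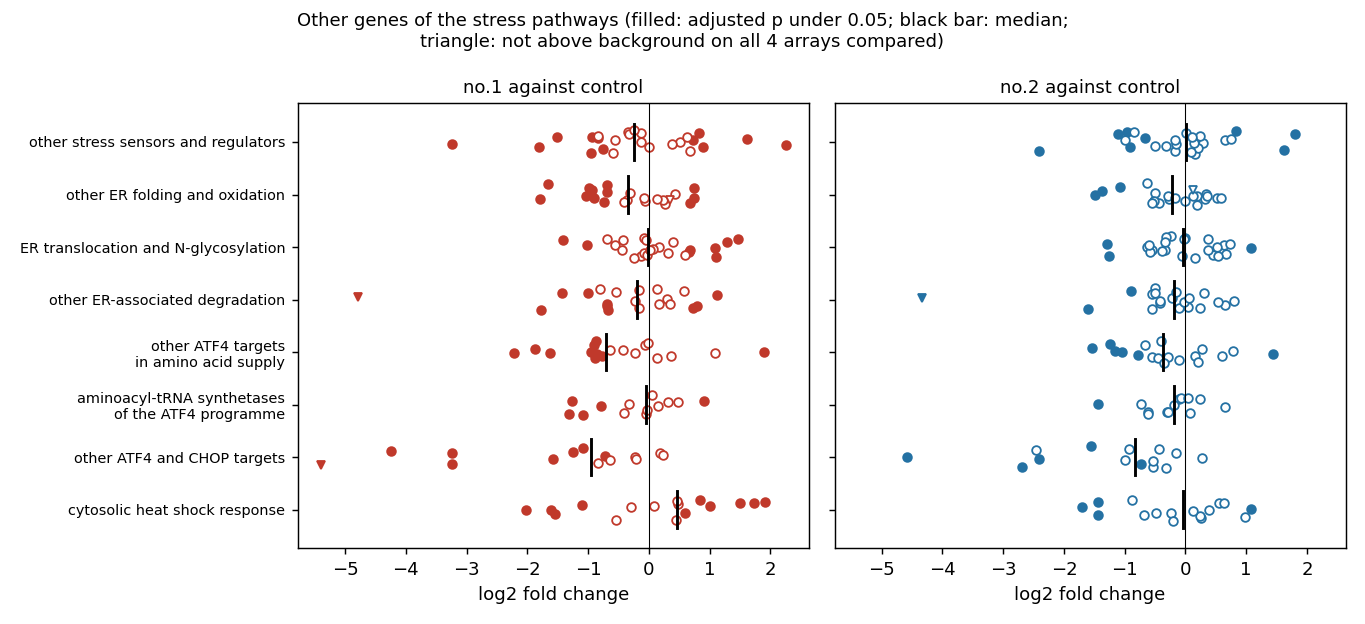
Log2 fold change against control of the genes of 8 other stress pathway lists in no.1 and no.2, with each list's median as a black bar, filled points where the adjusted p was under 0.05, and triangles where a gene was not above background on all 4 arrays compared. The list of other ATF4 and CHOP targets has the lowest median in both, -0.96 and -0.83.

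Of 25 other stress sensors and regulators 5 rose and 7 fell in no.1 (20% and 28%), and 3 rose and 5 fell in no.2 (12% and 20%), which is near the shares over all genes. Eif2ak4, which encodes the amino acid sensor GCN2, rose in no.1 (2.25 with SE 0.22 and adjusted p of 0.00221) and no.2 (1.63 with SE 0.22 and adjusted p of 0.00801), as did Bcl2l11, the cell death factor BIM (1.61 and 1.80). Atf5 fell in no.1 (-1.81, adjusted p of 0.00541) and Eif2b3, a subunit of the eIF2 exchange factor, in no.2 (-1.11, adjusted p of 0.0386), but relative to the spike-ins they stood at 0.13 and 0.17. Of 22 other ER folding and oxidation genes 3 rose and 9 fell in no.1, and none rose and 3 fell in no.2. Sil1, a BiP exchange factor, stood at -1.80 and -1.07 and Sdf2 at -1.65 and -1.48, all 4 called, and Ero1a, an ER oxidase, fell in no.1 (-0.90, adjusted p of 0.0145) and no.2 (-1.37, adjusted p of 0.00918). Cnpy2 (-1.04) and Prkcsh, a glucosidase subunit (-0.99), fell in no.1. Relative to the spike-ins Sil1 was above 0 in both groups, and Sdf2, Ero1a, Cnpy2 and Prkcsh were above 0 in no.1.

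Of 24 genes of ER translocation and N-glycosylation 6 rose and 2 fell in no.1, and 1 rose and 2 fell in no.2. Tram1, a translocon protein, stood at 1.47 (adjusted p of 0.0126) and 1.09 (adjusted p of 0.0466), and Ssr4, a translocon-associated subunit, at -1.41 (adjusted p of 0.00508) and -1.25 (adjusted p of 0.0126). Spcs3, of the signal peptidase (1.28), and Ssr3 (1.1) rose in no.1, and Sec11c fell in no.2 (-1.29). On the spike-in scale, Ssr4 and Sec11c were above 0. Of 20 other ER-associated degradation genes 3 rose and 7 fell in no.1, and none rose and 3 fell in no.2. Ube2g2, a ubiquitin-conjugating enzyme, stood at -1.77 and -1.60, and Os9, an ER lectin, at -1.43 and -0.89, and all 4 values passed. Vcp, the ATPase that extracts substrates, rose in no.1 (1.13, adjusted p of 0.0143), and Edem2 fell (-1.0, adjusted p of 0.0122). Scaled to the spike-ins, Os9 and Edem2 were above 0, as was Ube2g2 in no.1.

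Derl3, a derlin known as a target of the unfolded protein response and singled out after its values were seen, was measured in control only. Its single probe had a signal of 14.3 and 12.7 on the control arrays and 1.09 to 1.53 on the treated arrays, where it was not well above background. It was at least 7.44-fold lower in no.1 and at least 4.72-fold lower in no.2. Limma's adjusted p of 0.000357 (no.1) and 0.000653 (no.2) belong to the change computed without bounds. They rest on treated signals that were not well above background, and do not test the bounded folds. These bounds set the control mean against the lowest signal well above background on each treated array, and relative to the spike-ins both were at least 1.94-fold.

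In the list of the cytosolic heat shock response 6 of 16 genes were called higher and 4 lower in no.1, and 1 higher and 3 lower in no.2. The list also holds the mitochondrial chaperonin genes Hspd1 and Hspe1, and Hspd1 is among those called higher in no.1 (1.51, adjusted p of 0.00729). Hspa4l (1.92, adjusted p of 0.00531) and Dnaja1 (1.74, adjusted p of 0.00362), co-chaperones of cytosolic HSP70, rose in no.1, and Dnaja1 rose in no.2 (1.08, adjusted p of 0.0201). The inducible HSP70 genes Hspa1a and Hspa1b are near-identical, so their probes may read each other, and both were called lower, Hspa1a at -2.02 (no.1) and -1.45 (no.2), Hspa1b at -1.61 and -1.45. Hspb1, a small heat shock protein, fell in no.1 (-1.54, adjusted p of 0.00956) and no.2 (-1.71, adjusted p of 0.0137). Relative to the spike-ins Hspa1b and Hspb1 were above 0 in no.1.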

How the data were processed

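Each total RNA, labelled with Cy3, went on 1 Agilent array of 1 colour, per the labels. The deposited scanner files hold intensity values made with Agilent Feature Extraction 12.1.1.1 per the file headers, while the submitters' processing notes name 9.5.1.1. The deposited series matrix, also intensity values, had a median of 5.16 on every array, and 100% of them differed by less than 1% from the processed signal after quantile normalization, which gives their scale as linear. It was an alternative, and 0 of its columns lacked a sample. The members and the gene lists were chosen with earlier results of these data known.

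Values are the log2 ratio of the processed signal to the 75th percentile of the 56605 non-control probes on the array, with spots of a probe averaged and the probe of highest mean taken per gene. Accessions were matched to RefSeq symbols (assembly GRCm38.p6) for 32994 probes, and 23611 kept the file's name. Genes entered the test if that probe passed the background test on 2 of 2 arrays in 1 or more groups. Tests used limma 3.58.1 (lmFit and eBayes, two-sided) run in R 4.3.3, with files read through data.table (1.17.8), a mean per group over all 6 arrays, 3 residual degrees of freedom and Benjamini-Hochberg adjustment over all 23058 genes, with calls at an adjusted p under 0.05. Every adjusted p is limma's. The fit was tested on simulated data. All 35 genes are named, with values on every array for those called against control and for the 5 of lowest p between no.1 and no.2. Of each other list, up to 4 called genes of largest change above background on all arrays compared are named. The alternatives were normexp with an offset of 50 (on the median signal, since the files used here give no mean signal), quantile normalization, median-probe and spike-in scaling, other dim-probe filters, the mean over a gene's probes, the compared groups alone, a replicate block, each array left out, and the control arrays averaged, the last taken up because earlier results showed that they nearly coincide. For a gene measured in 1 group only, a bound was computed from the lowest signal well above background on each array. Promoter sequences are RefSeq's.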

Additional observations from a re-analysis of the deposited data

How the results depend on the processing

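Relative to the spike-in controls limma called 19395 genes in no.1 and 15564 in no.2, and 29 and 23 of the 35 genes. There the log2 fold changes in no.1 turned to 1.22 for Asns, 0.44 for Chac1, 1.05 for Phgdh, 0.91 for Shmt2, 1.22 for Derl1, 0.52 for Ppp1r15a, 0.75 for Sesn2, 0.031 for Cebpb and 0.75 for Herpud1. In no.2 they turned to 0.59 for Asns, 0.39 for Shmt2, 0.011 for Ppp1r15a and 0.38 for Sesn2, and Herpud1 between no.1 and no.2 turned to 0.094. These reversals come from the shift that this scaling adds to every gene. With normexp 12 of the 35 were called in no.2, and the cause was not tested. Without the filter on dim probes, which tests more genes, the calls over all genes were 24873 in no.1, 16476 in no.2 and 8296 between no.1 and no.2. With the control arrays averaged, which leaves fewer samples, they were 4845 in no.1 and 1246 in no.2, and 5 and 0 of the 35.

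Leaving out 1 array at a time, with the lone array of a group assumed to vary like the other groups, gave 4998 to 12053 genes in no.1 and 4 to 19 of the 35, 1298 to 6360 genes in no.2 and 0 to 7 of the 35, and 0 to 117 genes between no.1 and no.2, the 117 without no.1 replicate 2. With the number in the labels as a replicate block, 15 of the 35 were called in no.1, without Hspa5 and Mthfd2, 4 in no.2, without Asns and Eif2ak3, and 0 between them. Over all genes the block gave 10572, 6055 and 0. The labels do not say that the numbers pair the arrays, though in both treated groups the file names carry 24 h for number 1 and 48 h for number 2, where both control arrays carry 0 h. Deviations from the group means correlated at -0.035 between control and no.1, -0.017 between control and no.2, and 0.165 between no.1 and no.2.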
